A study of Mus musculus with 12 samples.

Results

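The genes described here encode the machinery that destroys mRNAs and clears blocked ribosomes. The set holds 54 genes, listed by function: 9 of nonsense-mediated decay (NMD), 3 of the exon junction complex, 10 of ribosome rescue and quality control, 6 of decapping and 5′ decay, 14 of the exosome and its helicases, and 12 of deadenylation. All 54 are listed in both deposited tables, of 41255 genes for mRNA and 10080 genes for ribosome footprints, and all 54 were abundant enough to be tested.

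Most eukaryotic mRNAs are degraded after their poly(A) tail has been shortened, either from the 5′ end once the cap has been removed or from the 3′ end by the exosome. NMD removes mRNAs on which translation terminates too early, often because an exon junction complex is still bound downstream of the stop codon. Where a ribosome stalls or collides with the one ahead, rescue factors split it, and a quality control complex marks the unfinished peptide on the large subunit for destruction. Several of these routes are coupled to translation, and RPL10, the protein altered in the study, is a constituent of the large ribosomal subunit.

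Ba/F3 cells, of mouse lymphoid origin, depend on interleukin-3 for growth. In all groups they carried a retroviral vector with a human RPL10 cDNA, either WT or with the R98S mutation, and an shRNA that knocks down the endogenous Rpl10. Libraries of ribosome-protected mRNA fragments (RPF), 6 in all, came from R98S clones 11, 13 and 35 and from WT clones 28, 29 and 36. The same 6 clones gave 6 libraries of poly(A) mRNA, so that 12 libraries were compared. Each clone is a culture grown from 1 cell, so the spread between clones includes differences between cell lines that are not due to the genotype. Cells were exposed to cycloheximide, which arrests elongating ribosomes, at 100 μg/ml for 5 min before either kind of library was made.

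The libraries held 20576796 to 22178094 counted reads for mRNA of the R98S clones and 6617457 to 23136595 for the WT clones, with the lowest number in WT clone 28. RPF libraries held 3477723 to 10883086 reads in R98S and 4611390 to 7162305 in WT clones. No member had fewer than 131 mRNA reads or 49 RPF reads in a library. The mRNA counted under mouse Rpl10 ranged from 1449 to 2905 normalised counts in R98S and from 2230 to 4501 in WT clones. Whether reads of the human RPL10 cDNA are among these was not tested. No culture without the knock-down was analysed here. Of 12 markers of pro-B and B cells, Cd79a and Cd79b reached a mean of 10 mRNA counts, while Pax5, Rag1 and Il7r were at 0 in every library. The 12 markers summed to 1352 to 1672 counts in R98S and 896.5 to 1157 in WT clones. Mast cell and basophil markers, 6 of 10 of which reached that mean, summed to 17671 to 29452 and 22621 to 27982, with Kit, Prss34 and Tpsb2 at 0, but Cpa3 was higher (253 to 788 against 13.4 to 174) and Gata2 lower (11145 to 15300 against 20183 to 26448) in R98S clones by limma. The 8 T cell markers summed to 137 to 149 against 51.7 to 69.8, and of 8 erythroid markers, which summed to 1703 to 2399 against 1885 to 3481, Hba-a1 was lower. The summed mRNA of 6 macrophage markers, nearly all of it Emr1, was 518 to 1203 in R98S and 4936 to 6760 in WT clones. The part of these differences between the clones in the results below was not tested.

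To compare genes with each other, counts were divided by length, that of all exons for mRNA and that of the coding sequence without its ends for RPF. In WT clones the members spanned from 99.4 ± 41.8 mRNA counts per kb (SD, n = 3) for Ttc37, a scaffold of the cytoplasmic SKI complex, to 2950 ± 696 for Magoh, a core subunit of the exon junction complex. Per kb of coding sequence, RPF ranged from 45.8 ± 8.31 for Pan2, the catalytic subunit of a deadenylase, to 2834 ± 438 for Rbm8a, the partner of Magoh. The median member stood at percentile 63.7 of all tested genes for mRNA per kb and at percentile 58.3 for RPF per kb. As a set the factors were thus somewhat above the middle of the expressed genes and not among the most abundant.

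Subunits of the same complex did not have equal levels. Among 8 subunits of the exosome core, mRNA per kb in WT clones ran from 216 ± 66.5 for Exosc4 to 1558 for Exosc8, a ratio of 7.22. RPF per kb of the same 8 genes differed less, from 268 ± 49.5 for Exosc9 to 1406 ± 282 for Exosc8, a ratio of 5.24. The SD of log2 levels across these 8 genes was on average 0.90 for mRNA and 0.81 for RPF in WT clones, and 0.89 and 0.72 in R98S clones. Both SDs are below those of all tested genes, 1.85 for mRNA and 2.06 for RPF. Those of the 54 members together, 1.05 and 1.38 in WT clones, are also below them. Among 8 subunits of the CCR4-NOT deadenylase complex, RPF was less even than mRNA in WT clones, with mean SDs of 0.69 and 0.60. These 8 include the paralogs Cnot6 and Cnot6l, and Cnot7 and Cnot8, for which a fixed ratio is not implied. The SKI complex, which feeds mRNAs to the cytoplasmic exosome, was less even: RPF per kb was 55.5 ± 5.15 for Ttc37, 221 ± 40.3 for the helicase Skiv2l and 1068 ± 96.2 for Wdr61. Wdr61 also belongs to a transcription elongation complex, and 42.9% of its annotated exon bases overlap Dnaja4 on the opposite strand.

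The number of footprints per mRNA differed widely between members. For each gene the RPF per kb was divided by the mRNA per kb and set against the median of all tested genes with a length, on the log2 scale. This ratio ranged from −2.56 for Cnot6, one of the deadenylases of the CCR4-NOT complex, to 2.01 for Exosc4, with a median of −0.15 over the members. In the lowest 10% of all genes were 5 members: Cnot6, the collision sensor Zfp598 (−1.93), the NMD adaptor Smg5 (−1.76), the ribosome splitting factor Hbs1l (−1.53) and the GTPase Gtpbp2 (−1.44). In the highest 10% were another 5: Exosc4, Rbm8a (1.75), Wdr61 (1.73), Exosc5 (1.66) and Exosc1 (1.39).

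The ends of the range were the same genes in R98S clones, where Cnot6 stood at −2.55 and Exosc4 at 2.23. Other low places changed. Zfp598 (percentile 11.1), Hbs1l (10.1) and Gtpbp2 (12.3) left the lowest 10% in R98S clones. Pan2 (4.97), Nemf (8.0), Upf2 (8.72) and Upf3b (9.26) entered it. Across the 54 members, Pearson's r between the ratios of R98S and WT clones was 0.94. With the length of 1 principal transcript per gene in place of all annotated exons, a choice added after the data had been seen, Cnot6 moved to −3.67, while Wdr61 fell to 0.30 and Exosc1 to 0.21. The high ratios of Wdr61 and Exosc1 thus depend on the annotated length.

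**Figure D1:**
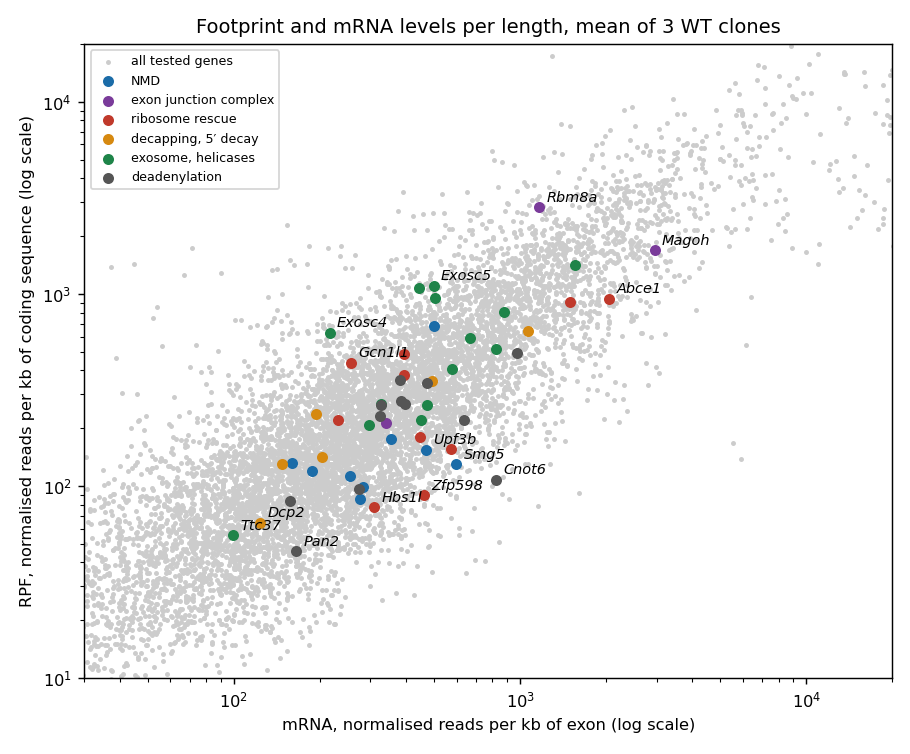
Each point is a gene, with its mRNA level (x axis, normalised reads per kb of exon) and its RPF level (y axis, normalised reads per kb of coding sequence) as the mean of 3 WT clones on log axes; grey points are all tested genes within the ranges drawn and coloured points the 54 members by class. Cnot6 (826 and 108) has the fewest footprints for its mRNA of all 54 members, and Exosc4 (216 and 627) the most.

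A start codon upstream of the main one can capture scanning ribosomes. Of 53 members with a complete annotated transcript, 27 had no ATG in the 5′ leader, 17 had 1, 6 had 2 and 3 had 3 or more. The median log2 ratio of RPF to mRNA fell along these groups, from 0.16 to −0.19, −0.58 and −1.11. Over all tested genes it was 0.15, −0.08, −0.16 and −0.25. The 3 members with the most upstream ATGs were Cnot7, Ttc37 and Cnot6, with 16, 10 and 4. Cnot7, like Cnot6 a deadenylase of CCR4-NOT, stood at −1.11, and Ttc37 at −0.28. This is a description of 53 genes that differ in much else, such as length, and groups of 6 and 3 genes are small.

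The windows around the 4 upstream ATGs of Cnot6 are shown because this gene had the lowest ratio of all members. They are read from the transcript sequence of GENCODE M21, 5′ to 3′, with the ATG in capitals.

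Cnot6 upstream ATG 1: gccgccgccATGatgcttg
Cnot6 upstream ATG 2: gccgccatgATGcttgttt
Cnot6 upstream ATG 3: ttgctttcaATGaaaacga
Cnot6 upstream ATG 4: gggactggtATGgtggttc

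These ATGs lie 348, 345, 328 and 86 bases before the main start. The frames that they open hold 7, 6, 43 and 64 codons, and only that of ATG 4 ends after the main start. Whether ribosomes use any of them was not tested, since the deposited RPF counts cover only the coding sequence.

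The main start codons of members at both ends of the ratio, and of the 2 genes that changed between genotypes, read as follows, with 9 bases before and 7 after the ATG in capitals (GENCODE M21, genome build GRCm38).

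Cnot6 main start: tcgagaggcATGcccaaag
Zfp598 main start: agcccggccATGgcggcgg
Smg5 main start: ccaggcaccATGagccaag
Hbs1l main start: ctgtgcgcgATGgcccggc
Exosc4 main start: ctgtacatcATGgccgggc
Exosc5 main start: tcagcggctATGgagggcg
Rbm8a main start: agaagcaagATGgcggacg
Upf3b main start: accgtggccATGaaggaag
Cnot6l main start: ctaatagggATGccaaagg

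The window of Cnot6 is on the minus strand of chromosome 11 and spans an exon junction. Those of Zfp598, Smg5, Hbs1l, Exosc4, Exosc5 and Rbm8a lie at chr17:24669749-24669767, chr3:88336415-88336433, chr10:21296125-21296143, chr15:76327484-76327502, chr7:25659227-25659245 and chr3:96629953-96629971, all on the plus strand. Upf3b and Cnot6l start on the minus strand, at chrX:37110222-37110240 and chr5:96134113-96134131. An A or G placed 3 bases before the ATG was found in 48 of 53 members (90.6%) and 86.4% of tested genes, and a G right after the ATG in 30 members (56.6%) and 54.9% of tested genes. Only Tcf25, of the quality control complex, had neither, against 6.32% of tested genes.

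The comparison of R98S with WT clones asks whether this machinery is present at other levels when ribosomes carry the mutant protein. For mRNA, 1 of 54 members passed an adjusted p of 0.1 (limma, Benjamini-Hochberg over all tested genes): Upf3b, which was higher. Over all tested genes the share was 6.94% of 11344, with 3.03% higher and 3.91% lower. For RPF, 1 of 54 members passed, Cnot6l, which was lower, against 7.76% of 9580 tested genes, with 3.13% higher and 4.62% lower. For translation efficiency (TE), the RPF of a clone over its mRNA, no member passed by limma, DESeq2 or edgeR, and 2 of 9043 genes (0.0221%) did by limma. At an unadjusted p of 0.05, 2 members differed for mRNA, 11 for RPF and 3 for TE, which is 3.70%, 20.4% and 5.56% of the members beside 17.9%, 20.3% and 7.85% of all tested genes. In bulk cultures, less of an mRNA per cell and fewer cells that carry it cannot be told apart.

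The members moved little at the mRNA level. Their median absolute log2 fold change was 0.14 for mRNA, beside 0.26 for all tested genes, and 0.22 for RPF, beside 0.28. For 51 of 54 members the 95% interval of the mRNA change lay wholly between a 2-fold fall and a 2-fold rise, and the exceptions were Upf3b, Smg9 and Cnot1. The same held for 44 members for RPF and 42 for TE. Counting clones instead, the 3 R98S values lay apart from the 3 WT values for 5 of 54 members in mRNA (9.26%), beside 23.5% of all tested genes, and for 11 of 54 in RPF (20.4%), beside 25.3%. The 2 sets of clones were disjoint in both assays for Upf3b alone. How often this occurs among all tested genes was not counted.

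**Figure D2:**
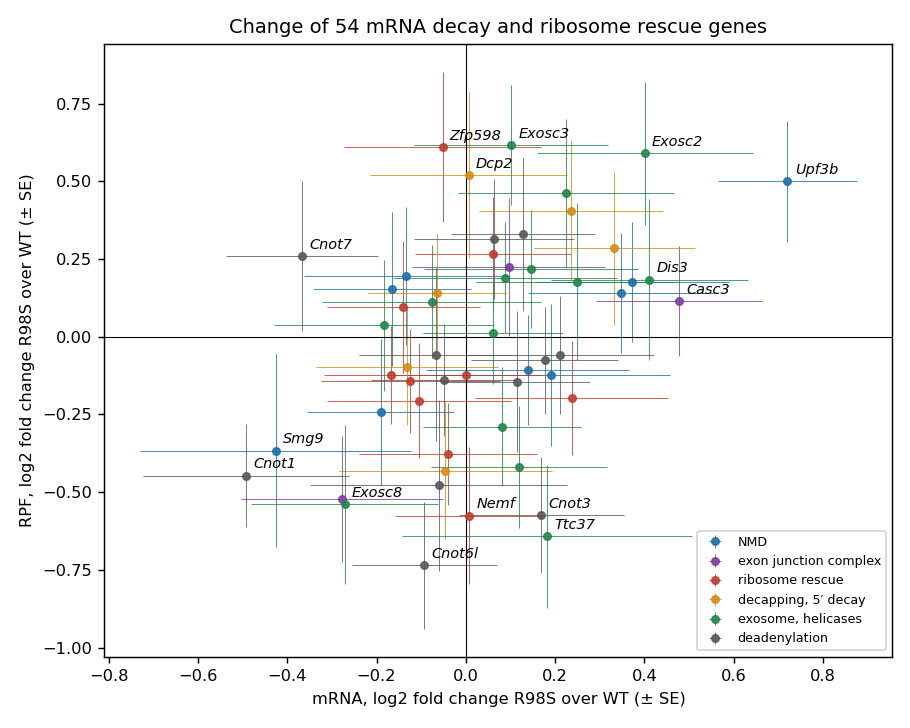
Each point is 1 of the 54 members, with its log2 fold change of R98S over WT clones for mRNA (x axis) and RPF (y axis), error bars of 1 SE and a colour for its class. Upf3b lies farthest to the right (0.72 and 0.50) and Cnot6l lowest (−0.09 and −0.74), and the points spread more along the y axis than along the x axis, with median sizes of 0.22 and 0.14.

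Among the NMD factors, Upf3b stood out. Upf3b bridges the exon junction complex and Upf2 and so links a premature stop to the NMD helicase Upf1. R98S clones 11, 13 and 35 had 1854, 1857 and 1731 normalised mRNA counts of this gene, and WT clones 28, 29 and 36 had 1074, 1073 and 1154. Every R98S clone was thus well above every WT clone. The log2 fold change was 0.72 ± 0.15 (SE, 95% interval 0.37 to 1.07, limma adjusted p = 0.0343). The adjusted p was between 0.00142 and 0.0455 over the 9 other settings with all clones, but rose to 0.166, 0.140 and 0.102 without R98S 11, R98S 13 and WT 36.

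The RPF of Upf3b went the same way without passing the threshold. It was 328, 277 and 284 in R98S clones and 239, 205 and 186 in WT clones, again with no overlap. The change was 0.50 ± 0.19 (limma adjusted p = 0.175). Upf3b carried few ribosomes for its mRNA, at percentile 13.8 of all tested genes in WT clones, and its TE changed by −0.22 ± 0.20 (limma adjusted p = 0.754). The gene lies on the minus strand of chromosome X, and none of its coding sequence has an exact 30-base copy elsewhere in the genome.

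Upf3a, the paralog that can take the place of Upf3b, had 631, 679 and 635 mRNA counts in R98S and 752, 646 and 791 in WT clones, and the groups overlapped. The ratio of Upf3b to Upf3a mRNA, chosen after the values had been seen, came to 2.80 ± 0.12 for R98S clones and to 1.52 ± 0.13 for WT clones (mean ± SD of 3). No clone of one group reached the range of the other, with the smallest two-sided exact permutation p that 3 against 3 clones allow, 0.1. For RPF the ratio was 1.31 ± 0.32 and 1.05 ± 0.40, and the groups overlapped (exact permutation p = 0.6).

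The other 8 NMD factors did not pass the threshold in any assay. Their log2 fold changes for mRNA were between −0.43 for Smg9, a regulator of the kinase Smg1, and 0.37 for Upf2. Smg9 was high in 1 WT clone only, with 287, 249 and 359 counts in R98S and 631, 302 and 327 in WT clones. Smg1, which phosphorylates Upf1, had 4873, 5706 and 5855 counts in R98S and 3171, 4856 and 5125 in WT clones. R98S clone 11 was below WT clone 36, so the groups overlapped. Upf1 itself changed by −0.19 ± 0.16 for mRNA, which turned to 0.02 with chromosome medians removed, and by −0.24 ± 0.24 for RPF. For TE the largest value of the class was that of Smg5, 0.33 ± 0.25 (limma adjusted p = 0.708).

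Of the exon junction complex, Casc3 had the largest mRNA change. Casc3 joins the complex in the cytoplasm and promotes NMD of some targets. Its mRNA was 1778, 2242 and 1640 in R98S and 1544, 1265 and 1239 in WT clones, without overlap, and the change was 0.48 ± 0.19 (limma adjusted p = 0.208). The RPF of Casc3 was 433, 520 and 453 against 470, 429 and 398, which overlapped, with a change of 0.12 ± 0.18. Its TE was lower in each R98S clone, at −0.36 ± 0.18 (limma adjusted p = 0.635).

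Rbm8a had the largest RPF change of the class. Its RPF was 1236, 857 and 885 in R98S and 1457, 1181 and 1613 in WT clones, and R98S clone 11 reached above WT clone 29. The change was −0.52 ± 0.20 (limma adjusted p = 0.176). Of the 30-base windows of its coding sequence, 51.6% have exact copies elsewhere in the genome, so that reads from this gene could be lost or shared. Magoh changed by 0.10 ± 0.22 for mRNA and 0.22 ± 0.22 for RPF.

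The rescue and quality control factors had the smallest median mRNA change in size of the 6 classes, 0.08. The 10 log2 fold changes were between −0.17 (Tcf25) and 0.24 (Gtpbp1), with a median of −0.05, and no interval reached a 2-fold change. Gtpbp1, a GTPase that acts on paused ribosomes, had 1515, 1629 and 1543 mRNA counts in R98S and 956, 1547 and 1573 in WT clones, so that WT clone 28 alone was low. Tcf25 had 7282, 6720 and 7092 counts against 7524, 8040 and 8145. Its groups did not overlap, but the change of −0.17 ± 0.15 was small and turned to 0.05 once the median of its chromosome was removed from each library.

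Footprints on these genes differed more. Zfp598, the ubiquitin ligase that recognises collided ribosomes, had 387, 337 and 336 RPF counts in R98S and 175, 212 and 329 in WT clones. All R98S clones were above all WT clones, although WT clone 36 came close. The change was 0.61 ± 0.24 (limma adjusted p = 0.183), and it passed the threshold without WT clone 36 (0.87, limma adjusted p = 0.0952). Without WT clone 28 it fell to 0.41 (limma adjusted p = 0.400). Its mRNA overlapped, at 1669, 1283 and 1441 against 2011, 1190 and 1437. The TE change was 0.66 ± 0.32 (limma adjusted p = 0.635). Hbs1l, which works with Pelo to split stalled ribosomes, had 352, 293 and 309 RPF counts in R98S and 244, 288 and 261 in WT clones, a change of 0.27 ± 0.18 (limma adjusted p = 0.452).

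No factor of the large subunit complex passed the threshold for RPF. Nemf, which binds the split large subunit and recruits the ligase, had 355, 327 and 432 RPF counts in R98S and 736, 453 and 498 in WT clones, with no overlap. The change was −0.58 ± 0.22 (limma adjusted p = 0.172). Ltn1, the ubiquitin ligase itself, had 836, 930 and 912 against 1272, 1091 and 1121, also with no overlap, and changed by −0.38 ± 0.16 (limma adjusted p = 0.225). The mRNAs of both overlapped between genotypes, with changes of 0.01 ± 0.17 for Nemf and −0.04 ± 0.20 for Ltn1. Tcf25, the remaining member of this complex on the list, had overlapping clones and an RPF change of −0.12 ± 0.16, which turned to 0.07 with chromosome medians removed.

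Pelo, Abce1, Gtpbp2 and Gcn1l1 overlapped between the genotypes in both assays. Their log2 fold changes were between −0.14 and 0.00 for mRNA and between −0.21 and 0.10 for RPF. Abce1, the ATPase that recycles ribosomes, had 6155, 9018 and 6552 mRNA counts in R98S and 6840, 7026 and 9412 in WT clones. Gcn1l1, the co-activator of the stress kinase Gcn2 on collided ribosomes, had 2693, 3285 and 3436 RPF counts in R98S and 4391, 2588 and 3466 in WT clones.

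Decapping and 5′ decay genes gave no call. Dcp1a, the cofactor of the decapping enzyme, had the largest mRNA change, with 1085, 1167 and 880 counts in R98S and 784, 806 and 883 in WT clones. R98S clone 35 lay among the WT clones, and the change was 0.33 ± 0.18 (limma adjusted p = 0.380). It shrank to 0.15 with chromosome medians removed. Dcp2, the decapping enzyme, had the largest RPF change of the class, with 130, 143 and 82.3 counts against 73.6, 77.0 and 90.9. Here too R98S clone 35 lay among the WT clones, and the change was 0.52 ± 0.27 (limma adjusted p = 0.307). Without that clone, whose RPF library is the smallest, Dcp2 passed the threshold (0.76, limma adjusted p = 0.0954). With another clone left out, its limma adjusted p was as high as 0.668, so the pass depends on the clone chosen. The scaffolds and enhancers Edc3, Edc4 and Lsm14a and the exonuclease Xrn1 had mRNA changes between −0.13 and 0.24 and RPF changes between −0.43 and 0.41.

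Exosome genes had more positive than negative changes, with 11 of 14 above 0 for mRNA and 10 of 14 for RPF, and 9 of 14 for each with chromosome medians removed. Their medians were 0.11 and 0.15, beside 0.01 for both assays over all tested genes, and none passed the threshold. Exosc3, a cap subunit that contacts RNA, had 544, 660 and 601 RPF counts in R98S and 331, 382 and 474 in WT clones, without overlap. The change was 0.62 ± 0.19 (limma adjusted p = 0.106) and passed with DESeq2 (DESeq2 adjusted p = 0.0728). It fell to 0.43 with chromosome medians removed (limma adjusted p = 0.230). With any 1 clone left out it did not pass (limma adjusted p between 0.112 and 0.330). The Exosc3 mRNA overlapped, at 834, 923 and 1045 against 1106, 671 and 879. Dis3, the catalytic subunit, had the largest mRNA change of the class, with 2129, 2325 and 1608 counts in R98S and 1319, 1302 and 1971 in WT clones. R98S clone 35 was below WT clone 36, and the change was 0.41 ± 0.22 (limma adjusted p = 0.376). It shrank to 0.23 with chromosome medians removed.

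In the opposite direction, Ttc37 had 159, 128 and 215 RPF counts in R98S and 272, 269 and 229 in WT clones. Every R98S clone was below every WT clone, and the change was −0.64 ± 0.23 (limma adjusted p = 0.145). Its mRNA overlapped, at 741, 912 and 653 against 384, 811 and 971. Exosc10, the nuclear exonuclease of the exosome, had 1067, 1126 and 1182 RPF counts in R98S and 1961, 1268 and 1364 in WT clones, a change of −0.42 ± 0.20 (limma adjusted p = 0.265). The other members of the class, among them the helicases Skiv2l and Skiv2l2, overlapped between genotypes in both assays.

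Deadenylation held the only RPF call. Cnot6l is one of a pair of paralogous deadenylases, with Cnot6, that the CCR4-NOT complex carries. Its RPF was 269, 192 and 208 in R98S and 365, 419 and 327 in WT clones. All R98S clones were below all WT clones, and the change was −0.74 ± 0.20 (95% interval −1.19 to −0.29, limma adjusted p = 0.0736). The adjusted p was between 0.0377 and 0.0841 over the 9 other settings with all clones, and between 0.101 and 0.271 when any 1 clone was left out, so the call needs all 6 clones.

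The mRNA of Cnot6l did not differ in this way, with 2722, 2907 and 2386 counts in R98S and 2589, 3067 and 2885 in WT clones. The mRNA change was −0.09 ± 0.16 (limma adjusted p = 0.816). Its 95% interval, −0.46 to 0.27, overlaps that of the RPF change, −1.19 to −0.29. TE was lower in every R98S clone, with a change of −0.64 ± 0.24 that did not pass (limma adjusted p = 0.629). Cnot6 RPF was 158, 150 and 168 in R98S and 110, 246 and 166 in WT clones, and it changed by −0.06 ± 0.28.

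The scaffold Cnot1 and its partner Cnot3 were also lower in RPF. Cnot1 had 2408, 2462 and 2809 RPF counts in R98S and 3281, 3619 and 3551 in WT clones, without overlap, and changed by −0.45 ± 0.17 (limma adjusted p = 0.156). Its mRNA was 4499, 6664 and 6179 against 5953, 9089 and 9528, with WT clone 28 among the R98S clones. The mRNA change was −0.49 ± 0.23 (limma adjusted p = 0.306), and −0.71 without WT clone 28 (limma adjusted p = 0.0746), which passed. Cnot3 had 403, 359 and 469 RPF counts in R98S and 701, 571 and 560 in WT clones, without overlap. The change was −0.57 ± 0.19 (limma adjusted p = 0.118), and it passed with DESeq2 (DESeq2 adjusted p = 0.0810). Exact copies elsewhere in the genome cover 34.8% of the 30-base windows of Cnot3 and 13.9% of those of Cnot1.

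Cnot7 was the deadenylase with a lower mRNA, at 1689, 1884 and 2106 counts in R98S and 2739, 2212 and 2372 in WT clones. The groups did not overlap, and the change was −0.37 ± 0.17 (limma adjusted p = 0.296). Its paralog Cnot8 had 903, 1228 and 998 against 1012, 957 and 1000. The ratio of Cnot7 to Cnot8 mRNA, chosen after the values had been seen, came to 1.84 ± 0.29 for R98S clones and to 2.46 ± 0.21 for WT clones (mean ± SD of 3, two-sided exact permutation p = 0.1, the smallest possible). For RPF this ratio was 0.59 ± 0.12 and 0.62 ± 0.15, which overlapped. Cnot7 lies on chromosome 8 and Cnot8 on chromosome 11, whose median mRNA shifted between genotypes by −0.21 and 0.10. With chromosome medians removed, the mRNA changes of Cnot7 and Cnot8 went from −0.37 and 0.06 to −0.15 and −0.03. The part of the chromosomes in the mRNA ratio was not tested. The ratio of Cnot6 to Cnot6l overlapped in mRNA and RPF (exact permutation p = 0.9 and 0.2). So did that of Gtpbp1 to Gtpbp2 (exact permutation p = 0.4 and 0.5). Cnot4, a ubiquitin ligase, had 863, 820 and 830 mRNA counts against 776, 817 and 730, a change of only 0.11 ± 0.17. Cnot2, Cnot10, Pan2, Pan3 and Parn, an independent poly(A) nuclease, overlapped in both assays.

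**Figure D3:**
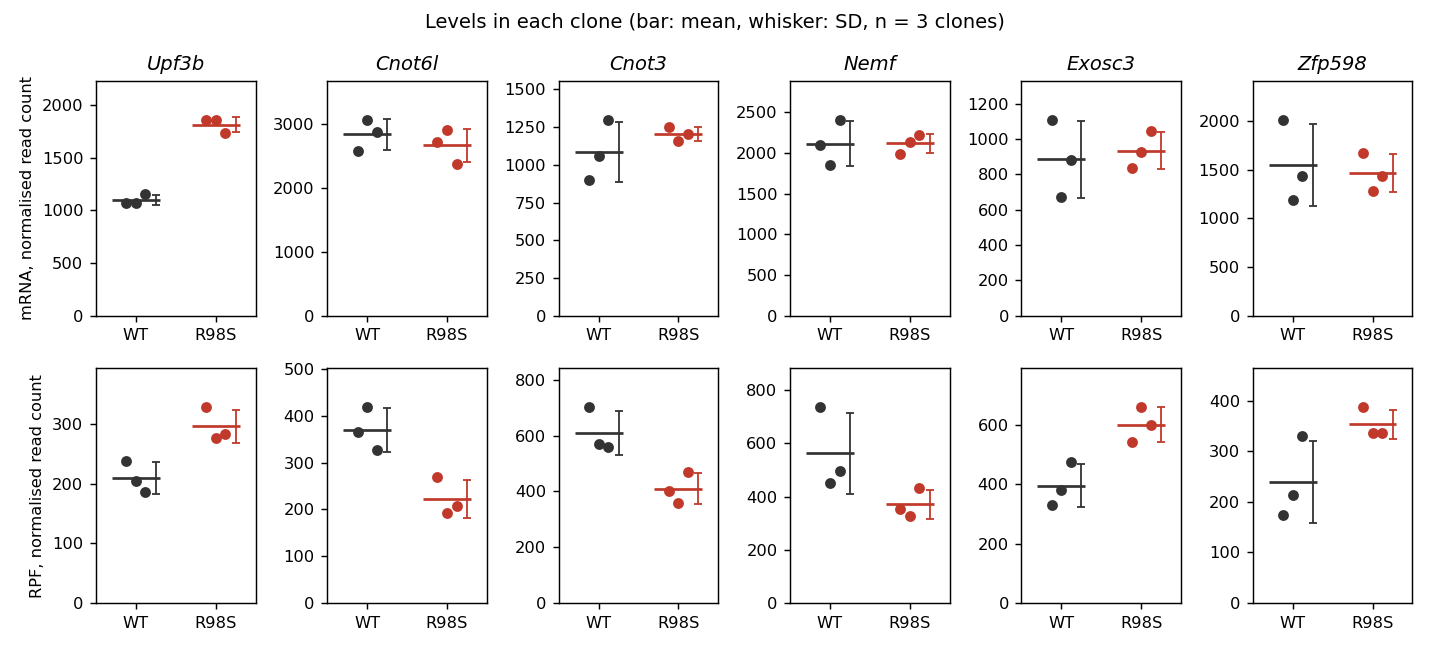
Normalised read counts of 6 members in each of the 3 WT (black) and 3 R98S (red) clones, for mRNA in the upper row and RPF in the lower row; the line is the mean and the whisker the SD. For Upf3b the red points are above the black ones in both rows, while the other 5 genes are separated only in the lower row.

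Translation efficiency was the log2 ratio of RPF to mRNA in each clone. Of 54 members, 9 had R98S clones wholly apart from WT clones (16.7%, beside 14.8% of all tested genes), 4 above and 5 below, beside 7.45% and 7.36% of all tested genes. The lower ones were Cnot3 (−0.74 ± 0.24), Cnot6l (−0.64 ± 0.24), Nemf (−0.58 ± 0.23), Exosc10 (−0.54 ± 0.30) and Casc3. The higher ones were Zfp598, Exosc3 (0.51 ± 0.26), Dcp2 (0.51 ± 0.23) and Cnot8 (0.25 ± 0.18). The largest change in size, −0.82 ± 0.41 for Ttc37, came with overlapping clones: TE was −2.21, −2.82 and −1.60 in R98S and −0.49, −1.59 and −2.08 in WT clones. The lowest adjusted p of any member was 0.629 (limma).

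The TE change of the members went down with the length of their coding sequence. Spearman's rho across the 54 genes was −0.43, and −0.26 across 9014 genes. The 16 members with at least 3000 coding bases had a median of −0.20, with 11 below 0, and the 18 members under 1500 bases a median of 0.19, with 12 above 0. Without WT clone 28, rho was −0.15 for the members and −0.01 for all genes, and the medians were −0.04 and 0.05. The genes share their libraries, so these values describe the libraries and are no test.

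WT clone 28 has the smallest mRNA library. Its mRNA deviations from the mean of the 6 clones had a rho of −0.35 with coding length across all genes and −0.42 across members. In the other mRNA libraries the value for all genes was between −0.10 and 0.26. Its RPF deviations went the other way, with a rho of 0.15 across all genes and 0.40 across members. The fit without WT clone 28 leaves out both its mRNA and its RPF library, so the parts of these libraries cannot be told apart. In that fit the TE of Ttc37 changed by −0.38, that of Cnot3 by −0.51, that of Cnot6l by −0.58 and that of Zfp598 by 0.26. Exosc10 then changed by −0.16, Exosc3 by 0.22 and Nemf by −0.37, while Casc3 (−0.40), Dcp2 (0.60) and Cnot8 (0.22) moved less.

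**Figure D4:**
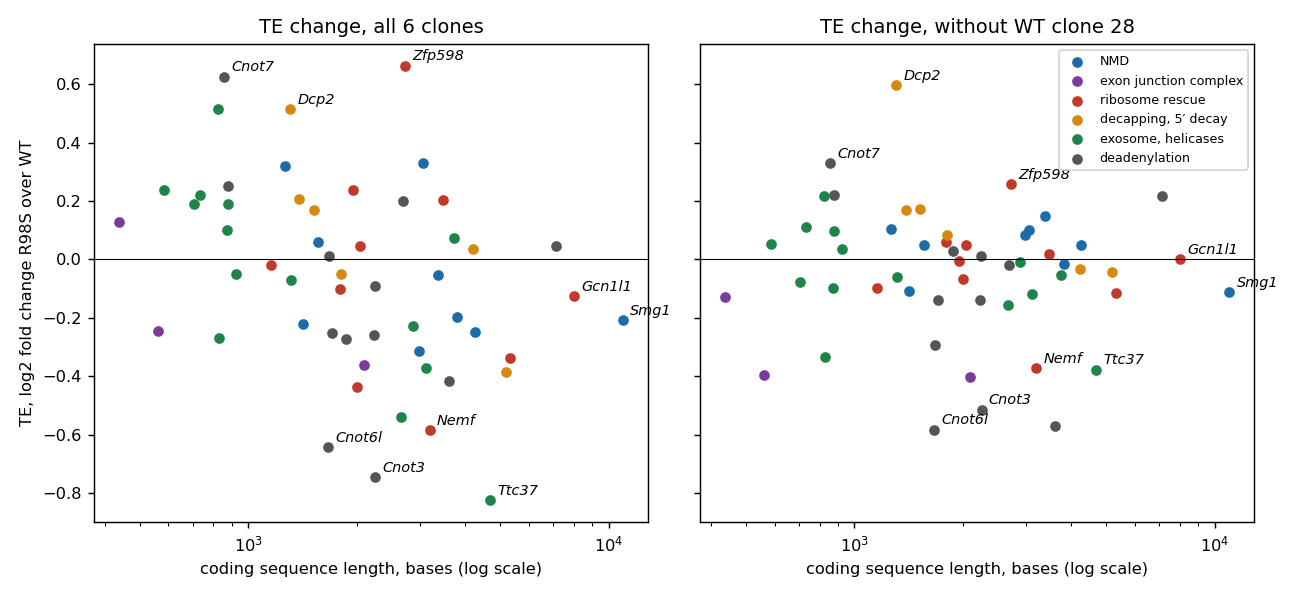
TE change of the 54 members (y axis, log2 fold change of R98S over WT) against the length of their coding sequence (x axis, bases, log scale), with all 6 clones on the left and without WT clone 28 on the right. The downward slope of the left panel (rho −0.43) is mostly gone in the right one (rho −0.15), while Cnot6l and Cnot3 stay low in both.

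The mRNA changes of the members also went with the chromosome they lie on. The median mRNA of chromosome 8 was lower in R98S than in WT clones by −0.21 on the log2 scale over 634 genes, with every R98S clone below every WT clone. All 7 members on this chromosome, Upf1, Upf3a, Abce1, Tcf25, Edc4, Cnot1 and Cnot7, had a negative change, with a median of −0.17. On chromosome 3 the shift was −0.26, but the clones overlapped, with R98S clone 11 (0.096) above WT clone 28 (0.088). There 3 of 4 members were negative: Smg5, Rbm8a and Exosc8. Exosc9 was positive. Across all 54 members, Pearson's r between the mRNA change and the shift of the chromosome was 0.44 and Spearman's rho 0.46. DNA was not analysed here, so whether the clones differ in the copy number of these chromosomes was not tested.

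With the median of each chromosome removed from each library, 5 of the 7 members on chromosome 8 turned positive for mRNA: Upf1 (0.02), Upf3a (0.05), Abce1 (0.11), Tcf25 (0.05) and Edc4 (0.08). Cnot1 mRNA then changed by −0.28 and Cnot7 mRNA by −0.15, while Smg5 on chromosome 3 turned from −0.13 to 0.13. Chromosome 14 was higher in R98S clones by 0.19, and Dis3 and Dcp1a on it shrank to 0.23 and 0.15 for mRNA. Exosc9 mRNA on chromosome 3 grew from 0.25 to 0.51. Over all 54 members, 14 mRNA and 7 RPF changes turned their sign, none of them past the threshold with or without the correction. Upf3b was less affected, since chromosome X was slightly lower in R98S clones, by −0.08. Its mRNA change became 0.80 (limma adjusted p = 0.0239) and its RPF change 0.69, which then passed (limma adjusted p = 0.0680). Cnot6l RPF became −0.70 and Cnot3 RPF −0.77, which also passed (limma adjusted p = 0.0394). Other RPF changes shrank, that of Cnot1 from −0.45 to −0.25, that of Rbm8a from −0.52 to −0.23 and that of Exosc8 from −0.54 to −0.25.

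**Figure D5:**
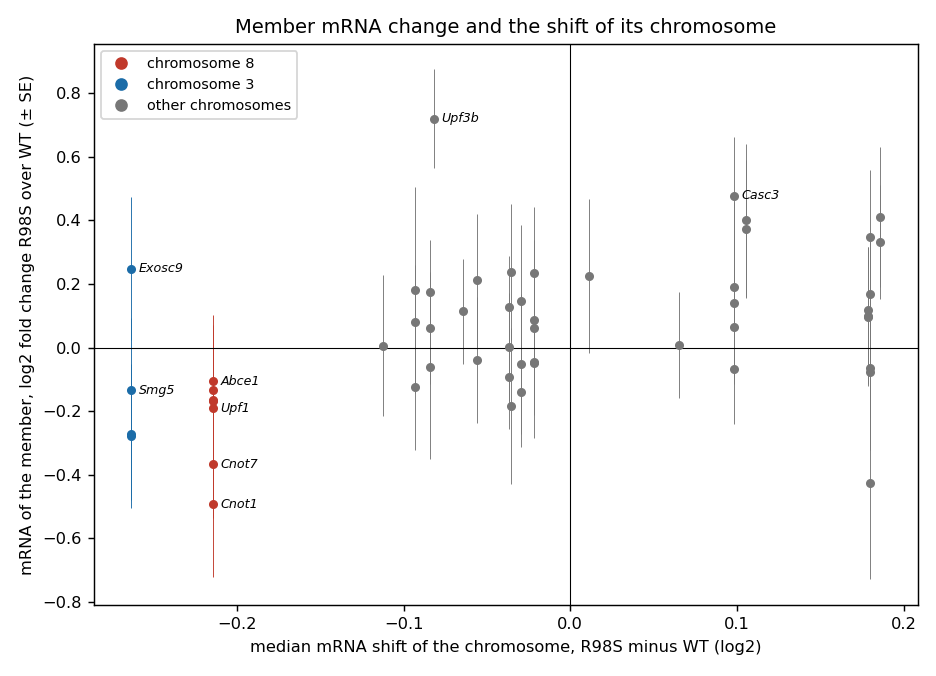
Log2 fold change of each member's mRNA (y axis, R98S over WT, error bars 1 SE) against the median shift of its chromosome between the genotypes (x axis, log2). The 7 members on chromosome 8 (red, x = −0.21) are all below 0, and Upf3b is the highest point although its chromosome shifted by −0.08.

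The same routes hold further genes, taken from lists of cofactors. Of 85 such genes, 81 could be tested, and 2 were higher and 2 lower in R98S clones for mRNA, and 2 and 2 for RPF. That is 4.94% in each assay, below the 6.94% and 7.76% of all tested genes. For TE, 0 were called, and 6 of 81 were under an unadjusted limma p of 0.05, beside 7.85% of all tested genes. Magohb, the near-identical paralog of Magoh, was lower in both, with 173, 132 and 187 mRNA counts in R98S and 1037, 440 and 379 in WT clones (log2 fold change −1.78 ± 0.36, limma adjusted p = 0.0274). Its RPF changed by −2.02 ± 0.31 (limma adjusted p = 0.00766). None of the 412 windows of 30 bases in the Magoh coding sequence has an exact copy elsewhere in the genome, a check that covers neither exon junctions nor inexact matches.

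Pnrc1, which can promote decapping, was higher in both assays, by 1.15 ± 0.21 for mRNA and 1.31 ± 0.20 for RPF (limma adjusted p = 0.0165 and 0.00824). Btg1, an antiproliferative partner of Cnot7 and Cnot8, was lower in both, by −1.60 ± 0.29 and −1.49 ± 0.34 (limma adjusted p = 0.0158 and 0.0392). Tnrc6a, which recruits CCR4-NOT to miRNA targets, was higher for mRNA, by 0.66 ± 0.18 (limma adjusted p = 0.0846). Ncbp1, the large subunit of the nuclear cap-binding complex, was higher for RPF, by 0.79 ± 0.16 (limma adjusted p = 0.0232). The lists of further rescue, decapping and exosome factors, with 23, 16 and 10 tested genes, gave no call by limma in mRNA or RPF. At an unadjusted limma p of 0.05, 6, 1 and 2 of these genes differed for mRNA and 4, 1 and 2 for RPF. Over all tested genes the shares at that p were 17.9% for mRNA and 20.3% for RPF.

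Finally, of 12 genes known from textbooks as NMD substrates, 8 could be tested for mRNA and 6 for RPF. Nat9 was higher, by 1.14 ± 0.21 for mRNA and 0.93 ± 0.24 for RPF (limma adjusted p = 0.0197 and 0.0553), and none of the others passed. Over all tested genes, 6.94% passed for mRNA and 7.76% for RPF. The mRNA of these 8 genes had a median log2 fold change of 0.10, with 5 above and 3 below 0. For RPF, 4 of the 6 genes were under an unadjusted limma p of 0.05, beside 20.3% of all tested genes, and 6 genes are few. The median RPF change of the 6 was 0.27, with a range from −1.64 for Atf4 to 1.28 for Gadd45a.

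Some members share sequence or exons with other genes, which bears on their counts. Besides Rbm8a, Cnot3 and Cnot1, exact copies of 30-base windows cover 20.3% of Abce1 and 19.4% of Hbs1l. Alignments of low mapping quality had been removed, so reads from such stretches may be missing. Pelo shares 37.9% of its exon bases with a gene on the same strand and 29.3% with one on the other strand, and Exosc9 shares 23.4% with Ccna2 on the other strand. The sources used here do not say whether counting used the strand.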

How the data were processed

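Ribosome footprints (30 to 33 nucleotides) and poly(A) mRNA of 3 RPL10 R98S and 3 RPL10 WT Ba/F3 clones were compared. The authors used Bowtie2 to filter out rRNA and tRNA, mapped the remaining reads to mm10 with TopHat2 2.0.11, kept primary alignments with a mapping quality of at least 10, merged 3 technical replicates per RPF library, counted RPF in coding sequences without the first 15 and last 5 codons and mRNA reads in exons. The deposited signal values are these counts divided by DESeq2 size factors, separately per table, and whole reads were recovered from them for 100% of values. The count tests, DESeq2 1.42.0 and edgeR 4.0.16, were therefore run as alternatives on recovered reads.

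Limma 3.58.1 (R 4.3.3, trend) was fitted to log2(value + 1) for genes with a mean of at least 10, and to log2(RPF + 1) minus log2(mRNA + 1) of each clone for genes with at least 10 in all 12 libraries. Fold changes are on this scale. Adjusted p-values are Benjamini-Hochberg over all tested genes, with the study's threshold of 0.1. Babel, which the study used for TE, was not run. RPF and mRNA libraries were paired by the clone number in the labels, and their deviations had a mean correlation of 0.519 (0.218 to 0.681). Lengths, positions and start codons came from GENCODE M21 (GRCm38), which matched all 54 members. The 54 members and all gene lists were chosen with earlier results of these data known. Full values are given for members past the threshold, those disjoint in both assays, and the largest change per class and assay; the others named were disjoint in 1 assay or chosen after their values were seen. P-values measure the spread between clones only. The fits were tested on simulated data.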

Additional observations from a re-analysis of the deposited data

How the results depend on the processing

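Counts below are of genes higher and lower in R98S clones at an adjusted p of 0.1. For mRNA, 344 and 443 of all tested genes passed, and 591 and 692 with DESeq2, 1454 and 1505 with library quality weights, and 122 to 486 and 180 to 623 with 1 clone left out. Of the members, 1 and 0 passed, with 3 and 2 under weights and 0 to 1 and 0 to 1 with 1 clone left out. For RPF, 300 and 443 of all tested genes passed, and 469 higher with DESeq2, 882 and 917 with weights, and 62 to 510 and 164 to 646 with 1 clone left out. Of the members, 0 and 1 passed, with 1 and 2 under DESeq2, 3 and 6 under weights, 1 and 2 with chromosome medians removed, and 0 to 3 and 0 to 3 with 1 clone left out. For TE, 0 and 2 of all tested genes passed, with 16 and 38 under DESeq2, 416 and 380 under weights, 4 lower without the filter, and 0 to 1 and 0 to 2 with 1 clone left out. Of the members, 0 passed, with 1 higher and 4 lower under weights. The change of Tcf25 mRNA turned from −0.17 to 0.046 with chromosome medians removed. The causes were not tested.

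TE was paired by clone, and without the replicate block 0 genes were higher and 3 lower, with no member among them. For 42 single results chosen by the naming rule, 497 of 530 values under other settings kept their direction and side of the threshold, 22 then passed, 9 no longer did, 1 moved (the Cnot6 ratio) and 1 reversed. Over all 54 members, removing chromosome medians turned the sign of 14 mRNA, 7 RPF and 2 TE changes, all at most 0.19 in size. Pseudocounts of 0.5 and 5, a filter of 50, TMM scaling and edgeR kept each count of members.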
